A study of Mus musculus with 8 samples.

Results

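The genes described here are 10 secreted proteins that the hepatoblast of the fetal liver makes for the plasma: the carriers Afp, Alb, Trf, Ttr, Rbp4 and Ahsg, and the apolipoproteins Apoa1, Apoa2, Apob and Apoh. They were chosen by name for their function, with earlier results of these data known. They were taken by gene identifier from a matrix of 52636 genes, of which 17378 passed the filter on low counts. All 10 passed it. They were measured by RNAseq in S0 cells from livers of mouse embryos at E12.5, with 4 libraries from wild type (WT) and 4 from Vps13a/Vps13c double knockout (DKO) embryos. S0 cells are the live cells of the dissociated liver that stain for neither CD71, Ter119 nor a cocktail of antibodies against other blood lineages, and are labelled as erythroid precursors.

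DKO embryos carried a Vps13a allele that lacks a coding exon and a Vps13c null allele, and came from crosses of mice that were heterozygous for the first and homozygous for the second. The WT libraries were wild type for both genes, so they were not DKO littermates and the 2 knockouts cannot be told apart here. The crosses were kept on a C57BL/6J background, and the knockout was in all tissues, so the liver and the blood cells in it were both mutant. The lineage antibodies named in the study's methods are directed at blood cells and none of them is directed at hepatoblasts.

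Hepatoblasts are the bipotent cells of the fetal liver that give rise to hepatocytes and bile duct cells, and blood cells mature in direct contact with them. Alpha-fetoprotein and albumin are products of neighbouring genes of 1 family, of which the first dominates in the fetus and the second after birth. Transferrin carries iron to erythroid cells, and transthyretin and retinol-binding protein travel together with thyroid hormone and vitamin A. The apolipoproteins give lipoprotein particles their structure: apolipoprotein A1 and A2 in high-density particles and apolipoprotein B in very low and low-density particles.

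The promoters of Alb and Afp are known to be bound by FOXA and C/EBP factors in liver cells. Promoter windows from RefSeq on GRCm38.p6, the 250 bases before each start, were held for 8 of the 10 genes. Trf and Ttr had none. The windows of Afp and Alb are shown because these genes are neighbours with different values, that of Rbp4 because its count did not follow Alb, and that of Apoh because it had the largest difference of the 10. Capitals mark exact matches on either strand to any of 5 motifs. An HNF4 motif was searched as CAAAGTCCA, with no shorter form, and FOXA sites were searched in 2 forms. The main form was TGTTTAC. A variant form of the FOXA site was TGTTTGC. The C/EBP motif was searched as TTGCNNAA and the TATA box, as the last of these motifs, by the letters TATAAA. The windows lie at chr5:90490464-90490713 (Afp), chr5:90460620-90460869 (Alb) and chr11:108395047-108395296 (Apoh) on the plus strand, and at chr19:38125322-38125571 (Rbp4) on the minus strand.
Afp: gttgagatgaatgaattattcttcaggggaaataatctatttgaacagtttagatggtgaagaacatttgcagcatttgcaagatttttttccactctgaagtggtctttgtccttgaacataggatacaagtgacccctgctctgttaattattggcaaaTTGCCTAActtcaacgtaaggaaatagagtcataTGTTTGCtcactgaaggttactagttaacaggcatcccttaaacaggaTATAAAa
Alb: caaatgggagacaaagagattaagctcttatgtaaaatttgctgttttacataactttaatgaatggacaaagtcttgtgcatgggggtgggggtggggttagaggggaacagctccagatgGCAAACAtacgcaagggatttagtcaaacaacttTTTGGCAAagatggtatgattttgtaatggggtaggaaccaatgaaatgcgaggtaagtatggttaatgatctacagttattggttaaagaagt
Rbp4: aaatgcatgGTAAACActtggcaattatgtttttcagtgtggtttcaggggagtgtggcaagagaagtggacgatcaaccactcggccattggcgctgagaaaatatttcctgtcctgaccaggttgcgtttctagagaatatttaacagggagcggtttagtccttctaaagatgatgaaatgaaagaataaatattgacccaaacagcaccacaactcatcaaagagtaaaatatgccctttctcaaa
Apoh: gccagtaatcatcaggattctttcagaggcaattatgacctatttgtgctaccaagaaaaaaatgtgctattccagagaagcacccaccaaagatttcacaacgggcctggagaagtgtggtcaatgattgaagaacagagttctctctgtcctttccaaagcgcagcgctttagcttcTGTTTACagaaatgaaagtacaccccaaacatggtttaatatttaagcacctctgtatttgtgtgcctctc

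The windows of Afp and Alb hold 1 match each to the variant FOXA form and the C/EBP motif. Only that of Afp among these 4 holds the letters of the TATA box, which start 7 bases before the RefSeq start. The windows of Afp and Alb end before the gene starts of the GENCODE annotation, and the bases between were not searched. The C/EBP match of Afp starts 89 bases before the RefSeq start and that of Alb 94 bases before it. In the windows of Rbp4 and Apoh the only match was the main FOXA form, at 241 and 71 bases before the start. Each of the 8 windows held 1 of the 2 FOXA forms, which were found in 7.29% of all 32851 windows. Counting the 2 forms together was decided after the matches were seen. The C/EBP motif was in 4 of the 8 windows and 9.56% of all, the TATA box in 3 and 12.4%, and the HNF4 motif in 0 and 0.384%. A GATA motif, AGATAA, was in 0 of the 8 and 9.99% of all. The GENCODE annotation starts other transcripts of Apoh further upstream, so that most of its window is also intronic.

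On GRCm38, Alb (ENSMUSG00000029368.10) lies on the plus strand of chromosome 5 from 90460897 to 90476602, and Afp (ENSMUSG00000054932.6) follows 14134 bases downstream, from 90490737 to 90508907. Trf is on chromosome 9 from 103204001 to 103230444, Rbp4 on chromosome 19 from 38116629 to 38125281 (both on the minus strand), and Ahsg on chromosome 16 from 22891277 to 22899449. Apoa1 is on chromosome 9 from 46228580 to 46230466, Apoa2 on chromosome 1 from 171225054 to 171226379, Apob on chromosome 12 from 7977648 to 8016835 and Apoh on chromosome 11 from 108343354 to 108414396. Values are counts of reads over the exons of the whole gene. Trf shares 2108 exonic bases with the gene model Gm20425 on the same strand, which had 3216 counts over all libraries, and Apoh shares 30 bases with Prkca on the other strand, which had 14653. How such reads were assigned is uncertain, because no source used here gives the strand setting with which reads were counted.

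Total counts ranged from 42114489 to 50886469 in WT libraries and from 36981439 to 42587815 in DKO libraries. Each library is treated as 1 embryo, which the study does not state, so the p-values measure only the spread between these libraries. Vps13a, which checks the labels, stood at 1943 ± 130 normalized counts in the WT group and 794 ± 194 in the DKO group (SD, n = 4 each; log2 fold change -1.29, with a standard error (SE) of 0.17, adjusted p by edgeR = 0.00247). Vps13c had 583 ± 74.9 and 816 ± 279, and its count over the whole gene does not check the labels (adjusted p by edgeR = 0.182). One library stood apart in the genes described here: DKO replicate 3. It was also the only DKO library with Ddx3y, a Y-linked gene, at the level of the WT libraries (2516 against 2911 to 3354 normalized counts), whereas the other 3 DKO libraries had at most 41.0 and expressed Xist at 18029 to 27043. All WT libraries were Ddx3y-positive, so sex and genotype cannot be told apart except in that library. The values of the 10 genes and the counts of other carriers, other apolipoproteins and identity genes are given with and without it.

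The 10 genes took a large share of the counts of these blood precursor libraries. They held 1.67%, 1.84%, 2.27% and 2.19% of all counts in WT replicates 1 to 4, and 1.303%, 1.92%, 0.497% and 1.73% in DKO replicates 1 to 4. DKO replicate 3 was thus lowest, and the other DKO libraries overlapped the WT range or lay below it. In these sorted bulk samples, fewer hepatoblasts and less RNA of these genes per hepatoblast cannot be told apart.

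**Figure D1:**
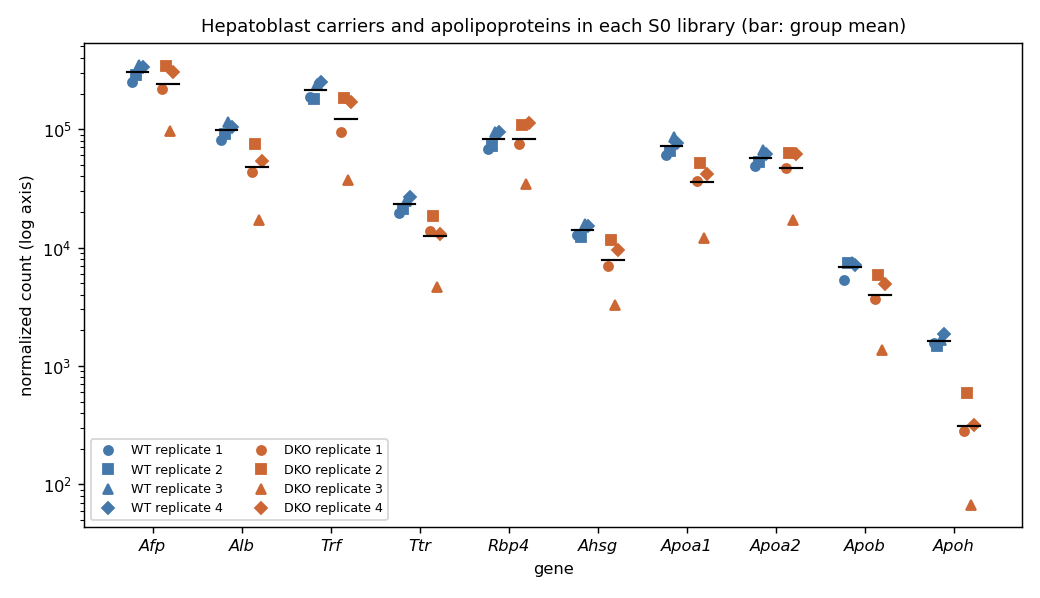
Normalized counts (log axis) of the 10 genes in each of the 4 WT (blue) and 4 DKO (orange) libraries, with a bar at each group mean. DKO replicate 3 (orange triangle) is the lowest library for all 10 genes, and the groups do not overlap for Alb, Ttr, Ahsg, Apoa1 and Apoh.

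Of the 10 genes, 9 had a lower fitted value in DKO, with a median log2 fold change of -0.83, where 47.4% of the 17378 genes tested were below 0 and the median over all of them was 0.03. Only Apoh passed the call, an adjusted p under 0.05 with a log2 fold change beyond 1, in a fit that called 2.43% of all genes lower and 6.19% higher. At an adjusted p under 0.05 alone Apoh was again the only one, where 10.8% of all genes passed as lower and 10.7% as higher. With DESeq2 in place of edgeR, Alb, Apoa1 and Apoh passed the call, where 2.92% of all genes were called lower. The groups did not overlap, with DKO lower, in 5 of the 10 genes, a pattern found in 14.6% of all genes tested. Without DKO replicate 3, 5 of the 10 genes passed the adjusted p threshold (Alb, Ttr, Ahsg, Apoa1 and Apoh), where 11.1% of all genes passed. Those log2 fold changes were closer to 0 than with it, and their standard errors were smaller. Without DKO replicate 1, the library with the highest sum of mesenchyme genes, Apoh alone passed that threshold, where 11.3% of all genes did. Without DKO replicate 2, the DKO library nearest to WT in these genes, 5 of the 10 passed the full call (again Alb, Ttr, Ahsg, Apoa1 and Apoh), where 2.89% of all genes were called lower.

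Albumin, the main protein of adult plasma, had 81282, 91726, 115537 and 103586 normalized counts in WT replicates 1 to 4, and 43449, 75095, 17211 and 54278 in DKO replicates 1 to 4. All 4 DKO libraries lay under the 4 of WT. The means were 98033 ± 14805 in WT and 47508 ± 24092 in the DKO group (SD, n = 4 each), which is -1.05 on the log2 scale (SE 0.35, adjusted p by edgeR = 0.0627, exact two-sided permutation p = 0.0286, and 4 against 4 libraries can give no smaller one). Without DKO replicate 3 the log2 fold change was -0.76 (SE 0.19, adjusted p by edgeR = 0.0261, range over all alternatives 0.0261 to 0.156).

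Alpha-fetoprotein is the fetal relative of albumin. Afp had 249219, 288522, 350358 and 333988 normalized counts in WT replicates 1 to 4, and 218719, 342898, 96775 and 301113 in DKO replicates 1 to 4. DKO replicates 2 and 4 lay within the WT range, and the groups overlapped. The log2 fold change was -0.35 (SE 0.32, adjusted p by edgeR = 0.472, exact two-sided permutation p = 0.343), and -0.08 without DKO replicate 3 (adjusted p by edgeR = 0.772, range over all alternatives 0.245 to 0.860). Over all alternatives it lay between -0.58 and -0.08.

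Transferrin is the iron carrier of plasma, and iron-loaded transferrin enters erythroid cells through CD71. Trf had 188467, 179977, 241803 and 249398 normalized counts in WT replicates 1 to 4, and 95073, 183742, 37135 and 169018 in DKO replicates 1 to 4. Only DKO replicate 2 reached the lowest WT library. The log2 fold change of -0.83 did not pass the test (SE 0.40, adjusted p by edgeR = 0.171, exact two-sided permutation p = 0.0571), nor did the value of -0.52 without DKO replicate 3 (adjusted p by edgeR = 0.133, range over all alternatives 0.0996 to 0.359).

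Transthyretin and retinol-binding protein, which circulate as a complex, gave unlike values. Ttr had 19766, 21363, 24916 and 26905 normalized counts in WT replicates 1 to 4, and 13809.6, 18446, 4609 and 12894 in DKO replicates 1 to 4. Rbp4 had 68131, 72452, 94027 and 94258 in WT replicates 1 to 4, and 75174, 108588, 34572 and 113278 in DKO replicates 1 to 4. The groups were apart for Ttr, whereas DKO replicates 2 and 4 had more Rbp4 than any WT library. For Ttr the log2 fold change was -0.90 (SE 0.33, adjusted p by edgeR = 0.0820, exact two-sided permutation p = 0.0286), and -0.62 without DKO replicate 3 (SE 0.15, adjusted p by edgeR = 0.0232, range over all alternatives 0.0232 to 0.222). That of Rbp4 was 0.01 (SE 0.31, adjusted p by edgeR = 0.983, exact two-sided permutation p = 0.886), and 0.27 without DKO replicate 3 (SE 0.17, adjusted p by edgeR = 0.291). The sign for Rbp4 changed between alternatives, from -0.17 to 0.27.

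Ahsg encodes fetuin-A, a plasma protein that keeps calcium phosphate in solution. It had 12740.3, 12186.5, 15751 and 15341 normalized counts in WT replicates 1 to 4, and 6955, 11526, 3282 and 9488 in DKO replicates 1 to 4. All 4 DKO libraries lay under the 4 of WT, with DKO replicate 2 close to the lowest of them. The log2 fold change was -0.84 (SE 0.31, adjusted p by edgeR = 0.0822, exact two-sided permutation p = 0.0286), and -0.58 without DKO replicate 3 (SE 0.17, adjusted p by edgeR = 0.0436, range over all alternatives 0.0163 to 0.278).

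The main proteins of high-density lipoprotein gave unlike values too. Apoa1 had 60852, 65498, 85279.5 and 76117 normalized counts in WT replicates 1 to 4, and 36530.3, 51573, 12134 and 41584 in DKO replicates 1 to 4. Apoa2 had 48366, 52345, 66369 and 61302 in WT replicates 1 to 4, and 46761, 63486, 17049 and 62214.5 in DKO replicates 1 to 4. The groups were apart for Apoa1, and for Apoa2 DKO replicates 2 and 4 lay inside the WT range. For Apoa1 the log2 fold change was -1.02 (SE 0.35, adjusted p by edgeR = 0.0664, exact two-sided permutation p = 0.0286), and -0.73 without DKO replicate 3 (SE 0.15, adjusted p by edgeR = 0.0145, range over all alternatives 0.0145 to 0.148). That of Apoa2 was -0.27 (SE 0.34, adjusted p by edgeR = 0.609, exact two-sided permutation p = 0.486), and 0.01 without DKO replicate 3 (adjusted p by edgeR = 0.952, range over all alternatives 0.422 to 0.952).

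Apolipoprotein B is the structural protein of very low-density lipoprotein and stays with the particle from its assembly to its uptake. Apob had 5345, 7369.6, 7493 and 7111 normalized counts in WT replicates 1 to 4, and 3695, 5877, 1363 and 4889.97 in DKO replicates 1 to 4. Only DKO replicate 2 reached the lowest WT library. The log2 fold change of -0.79 did not pass the test (SE 0.36, adjusted p by edgeR = 0.142, exact two-sided permutation p = 0.0571), nor did that of -0.50 without DKO replicate 3 (adjusted p by edgeR = 0.0745, range over all alternatives 0.0745 to 0.2996).

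Apoh encodes beta-2-glycoprotein I, a phospholipid-binding plasma protein, and fell in DKO. It had 1552, 1472, 1648 and 1866 normalized counts in WT replicates 1 to 4, and 282, 587, 67.1 and 319 in DKO replicates 1 to 4. The highest DKO library had fewer counts than the lowest WT library by a wide margin, and DKO replicate 3 was again the lowest. The mean fell from 1634 ± 170.2 to 314 ± 213 (SD, n = 4 each). The fitted difference was 5.21-fold, or -2.38 on the log2 scale (SE 0.49, adjusted p by edgeR = 0.0106, exact two-sided permutation p = 0.0286). Without DKO replicate 3 it was -2.04 (SE 0.26, adjusted p by edgeR = 0.00335), and it passed under each of the other alternatives tried, with adjusted p from 1.63e-06 (DESeq2) to 0.0364 (edgeR without WT replicate 4).

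**Figure D2:**
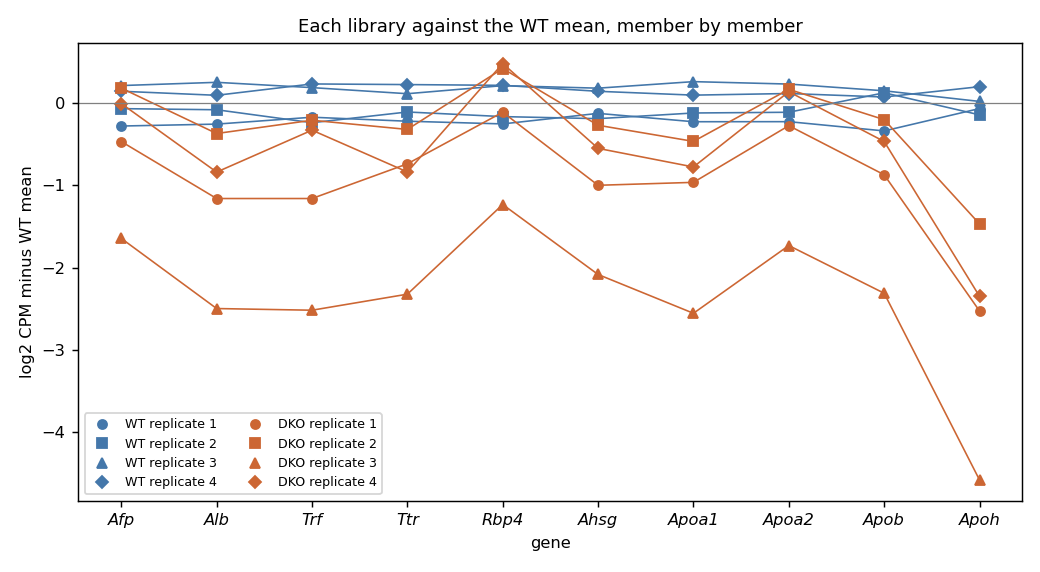
Log2 CPM of each library minus the WT mean, for the 10 genes; lines join the values of 1 library. The 4 WT lines are flat near 0, while all 4 DKO lines peak at Rbp4, are high at Afp and Apoa2 and are lowest at Apoh.

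The DKO libraries differed mainly in level. The median over the 10 genes of log2 CPM minus the WT mean was -0.92, -0.24, -2.32 and -0.51 in DKO replicates 1 to 4, and between -0.23 and 0.20 in WT libraries. The plot of each library against the WT mean shows DKO lines of similar shape. Over the 45 pairs of the 10 genes, Pearson correlations of log2 CPM after removal of the genotype means were 0.926 to 0.994 (median 0.979). These points are 8 libraries that share depth and scaling, with DKO replicate 3 far from the rest, and the correlations are given as a description.

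Counts of 2 genes in the same library give a ratio that no scaling between libraries can change. The Afp to Alb ratio was 3.07, 3.15, 3.03 and 3.22 in WT replicates 1 to 4, and 5.03, 4.57, 5.62 and 5.55 in DKO replicates 1 to 4. The 4 WT libraries lay within a narrow band, and every DKO library was above it, DKO replicate 3 included. On average the ratio was 1.66-fold higher in DKO, a log2 difference of 0.73 (exact two-sided permutation p = 0.0286), and the difference lay between 0.69 and 0.79 when any single library was left out.

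The other 8 ratios share Afp with it and are not independent of it. Afp to Apoh was 161, 196, 213 and 179 in WT replicates 1 to 4, and 777, 584, 1441 and 945 in DKO replicates 1 to 4, 4.77-fold higher on average. Afp to Apoa1 was 4.10, 4.41, 4.11 and 4.39 in WT, and 5.99, 6.65, 7.98 and 7.24 in DKO. Both were apart between the groups, and so were the ratios of Afp to Trf, Ttr, Ahsg and Apob, with log2 differences of 0.57, 0.57, 0.49 and 0.48. In 7 of the 9 ratios Afp was thus higher against its partner in every DKO library.

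The ratio to Rbp4 went the other way. Afp to Rbp4 was 3.66, 3.98, 3.73 and 3.54 in WT replicates 1 to 4, and 2.91, 3.16, 2.80 and 2.66 in DKO replicates 1 to 4. The log2 difference was -0.37, and the groups were again apart. Afp to Apoa2 overlapped, with a log2 difference of -0.06. Relative to Afp, Rbp4 was thus higher in DKO, Apoa2 was not apart and the other 7 genes were lower. Over 15775 genes, 1.19% had a ratio to Afp that was lower in every DKO library than in every WT library, and 12.7% a higher one. Afp itself stood at -1.65 against the WT mean on the log2 scale in DKO replicate 3. A gene that did not fall there has a raised ratio, so these shares are no baseline for genes that vary with Afp.

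**Figure D3:**
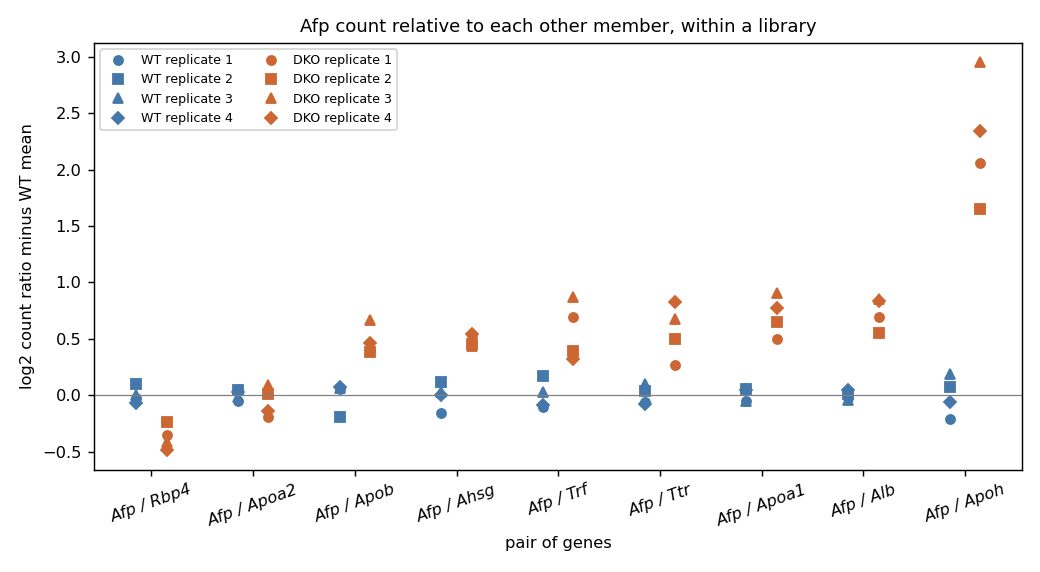
Log2 ratio of the Afp count to that of each other gene within a library, minus the WT mean, for 4 WT (blue) and 4 DKO (orange) libraries. The DKO points lie above the WT points for 7 ratios, below them for Rbp4 and among them for Apoa2.

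Per kilobase of exon, the levels of the 10 genes spread widely. In WT, Apoa2 had 2421 ± 348 CPM per kb (SD, n = 4), Afp 2066 ± 309, Trf 1474 ± 245, Rbp4 1394 ± 235, Apoa1 1325 ± 202 and Alb 953 ± 144. Ttr followed with 446 ± 62.5, Ahsg with 145 ± 18.7, Apoh with 23.3 ± 2.43 and Apob with 11.2 ± 1.64. Ranges of neighbours in this order overlapped from Apoa2 down to Alb and were apart from Alb on, although all 4 WT libraries gave the same order. By this level Apoa2 ranked 3, Afp 8 and Alb 34 among the 17378 genes tested, with Trf, Rbp4 and Apoa1 between Afp and Alb. Ttr ranked 111, Ahsg 410, Apoh 2657 and Apob 4563.

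In DKO the mean levels per kilobase were 2009 ± 916 CPM per kb for Apoa2, 1622 ± 733 for Afp, 1406 ± 617 for Rbp4, 832 ± 468 for Trf, 653 ± 309 for Apoa1 and 462 ± 234 for Alb. Ttr had 239 ± 111, Ahsg 81.0 ± 36.8, Apob 6.47 ± 3.18 and Apoh 4.48 ± 3.05. The order differed from that of WT in 2 exchanges in every DKO library: Rbp4 was above Trf, and Apob above Apoh, in 4 of 4 DKO libraries and 0 of 4 WT libraries. In DKO replicate 1, Apoa1 was also above Trf, at 673 against 652 CPM per kb, and no other pair was exchanged. The rank of Alb among all genes was 121, and that of Apoh 7253.

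Other plasma carriers and protease inhibitors of the liver were read from the same fit. Of 26 listed, 22 were tested, 20 had a log2 fold change below 0 (median -0.75), 4 passed the call as lower, and 11 were apart between the groups as lower. Over all genes tested, 47.4% were below 0, 2.43% were called lower and 14.6% were apart as lower. Without DKO replicate 3, 17 of 23 tested were below 0 (median -0.51), 10 passed an adjusted p under 0.05 as lower and 1, the copper carrier Cp, as higher, where 11.1% and 10.4% of all genes did. The 4 called with all libraries were Gc, the vitamin D binding protein of the albumin family, at -2.11 (SE 0.39, adjusted p by edgeR = 0.00725), the alpha-1-antitrypsin genes Serpina1c at -2.06 (edgeR, adjusted p = 0.00976) and Serpina1e at -1.83 (edgeR, adjusted p = 0.0175), and Itih1, a heavy chain that binds hyaluronan, at -1.19 (edgeR, adjusted p = 0.0226). The Serpina1 genes are near-identical copies, so the split of reads between them is uncertain. Gc and Serpina1c kept an adjusted p under 0.05 when any single library was left out. Serpina1e lost it without WT replicate 4 (adjusted p by edgeR = 0.0521), and Itih1 without WT replicate 2 or WT replicate 4.

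Gc had 1608.5, 1586, 2269 and 1877 normalized counts in WT replicates 1 to 4, and 253, 781, 198 and 472 in DKO replicates 1 to 4, with no overlap. The fourth gene of the albumin family, Afm, lies 10024 bases beyond Afp on chromosome 5 and encodes a vitamin E binding protein. Afm had 332, 383, 474 and 462 in WT, and 313, 596, 111 and 494 in DKO, so that the groups overlapped (log2 fold change -0.12, adjusted p by edgeR = 0.866). Against Afp within a library, Gc was lower in every DKO library (log2 difference -1.81), as was Alb. Of the 21 other carriers and inhibitors compared, 10 including Gc were lower in this way, and only Ambp was higher (0.13). The shares over 15775 genes were 1.19% lower and 12.7% higher, and they depend on the choice of Afp.

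The corticosteroid carrier Serpina6 had the most counts of this list, without regard to length, 66171 ± 9731 normalized counts in WT, against 32768 ± 15428 in DKO libraries (SD, n = 4 each; log2 fold change -1.01, adjusted p by edgeR = 0.0673). Haptoglobin, Hp, which binds free hemoglobin, had 1182 ± 168 and 375 ± 273, with the lowest value, 36.8, in DKO replicate 1 and not in DKO replicate 3 (log2 fold change -1.66, adjusted p by edgeR = 0.0808). Hemopexin, Hpx, which binds free heme, had 3593 ± 241 and 2916 ± 1272 (log2 fold change -0.30, adjusted p by edgeR = 0.497). Neither passed the test with all libraries. Hp was lower in every DKO library than in every WT library (exact two-sided permutation p = 0.0286). Without DKO replicate 1 its log2 fold change was -1.27 and passed (adjusted p by edgeR = 0.00780). Without DKO replicate 3 it was -1.66 and did not pass (adjusted p by edgeR = 0.125).

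**Figure D4:**
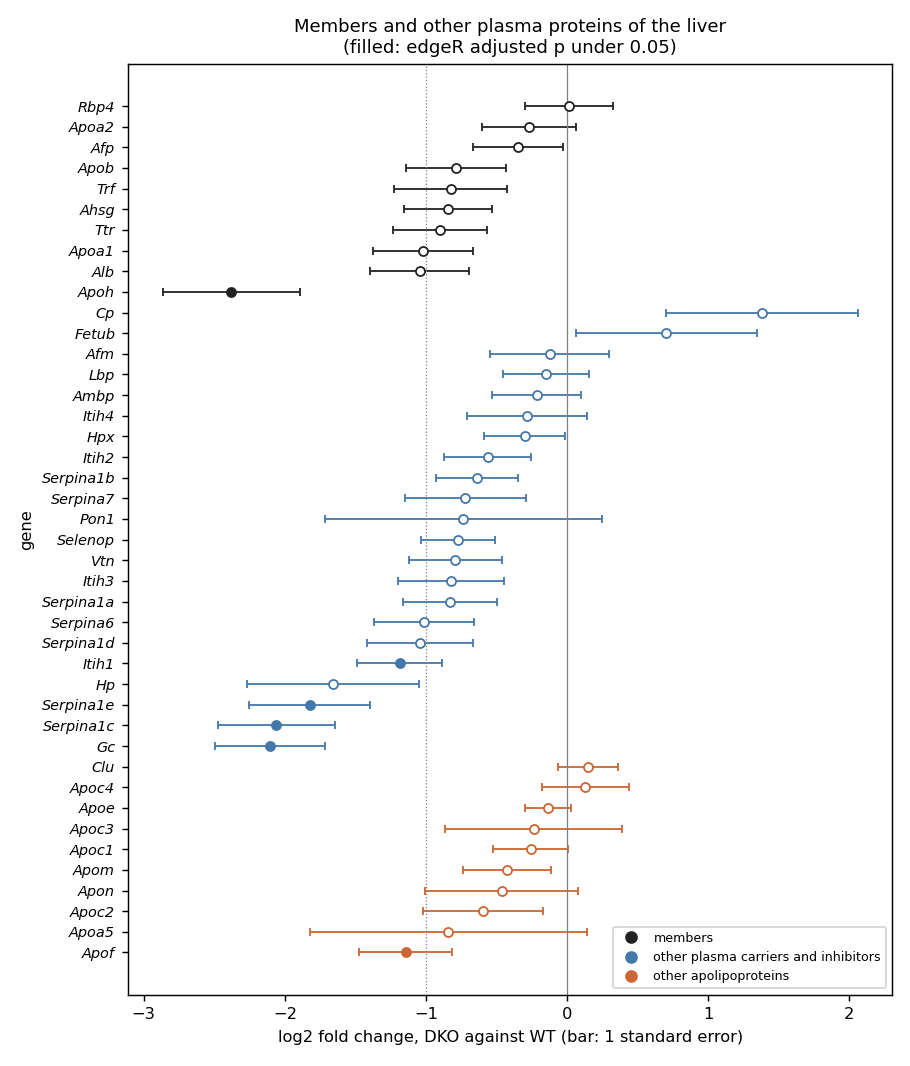
Log2 fold change, DKO against WT, with bars of 1 standard error, for the 10 genes (black), 22 other carriers and inhibitors (blue) and 10 other apolipoproteins (orange); filled points have an edgeR adjusted p under 0.05, and the dotted line is at -1. The filled points are Apoh, Itih1, Serpina1e, Serpina1c, Gc and Apof, all to the left of the dotted line.

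Of 12 other apolipoproteins, 10 were tested, 8 had a log2 fold change below 0 (median -0.34), and 1 passed the call, beside the 47.4% and 2.43% of all genes. Without DKO replicate 3, 6 of the 10 were below 0 (median -0.09), and only Apof passed an adjusted p under 0.05. Apof, a regulator of lipid exchange between particles, fell from 2006 ± 221 in WT to 908 ± 396 in DKO (normalized counts, SD, n = 4 each; log2 fold change -1.14, SE 0.33, adjusted p by edgeR = 0.0357), a call that ended in 6 of the 8 fits with 1 library left out, DKO replicate 1 among them (adjusted p by edgeR up to 0.0929). Apoe, which macrophages also make, had the most counts of this list, 91567 ± 8870.45 and 83287 ± 19372 (log2 fold change -0.14, adjusted p by edgeR = 0.589). Apoc3, which lies 2466 bases from Apoa1 on chromosome 9, had 51.6 ± 21.8 and 43.7 ± 28.8.

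Among 16 genes for the assembly and remodelling of lipoproteins, 4 passed an adjusted p under 0.05 as lower and 1 as higher, and the median log2 fold change was -0.36, beside 10.8% and 10.7% of all genes. Surf4, the receptor that loads lipoproteins into export vesicles, had a log2 fold change of -0.39 (adjusted p by edgeR = 0.0113), and P4hb, the partner subunit of the lipid transfer protein that lipidates apolipoprotein B, one of -0.36 (edgeR, adjusted p = 0.0422). The call of P4hb ended in 7 of the 8 fits with 1 library left out, among them those without DKO replicate 1 and without DKO replicate 3, with an adjusted p by edgeR of up to 0.121, whereas that of Surf4 was kept in all 8. Cideb, a lipid droplet protein, fell with a log2 fold change of -1.42 (adjusted p by edgeR = 0.0318). Pltp, the phospholipid transfer protein of plasma, was higher at 1.63 (edgeR, adjusted p = 0.0246), from a low level of 36.9 ± 11.7 to 115 ± 43.9 normalized counts. The calls of Cideb and Pltp each ended in 5 of those 8 fits, the 4 without a WT library among them. Mttp, the catalytic partner of P4hb, had 2488 ± 482 and 2746 ± 705 (adjusted p by edgeR = 0.663).

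Of 17 receptors and uptake proteins for these carriers, 16 were tested, 2 passed an adjusted p under 0.05 as lower and 1 as higher, beside 10.8% and 10.7% of all genes, and the median log2 fold change was -0.01. Abcg1, which exports sterol to high-density particles, had a log2 fold change of -1.13 (SE 0.17, adjusted p by edgeR = 0.00348), and Scarb1, the receptor for these particles, -0.73 (SE 0.14, adjusted p by edgeR = 0.00825). Vldlr, a receptor for very low-density lipoprotein, was higher at 1.46 (SE 0.37, adjusted p by edgeR = 0.0235), although its groups overlapped and the call ended without WT replicate 1, 2 or 3. Those of Abcg1 and Scarb1 were kept whichever library was left out. Tfrc, the transferrin receptor CD71 by whose absence S0 cells were sorted, had 3656 ± 425 normalized counts in WT, against 4293 ± 754 in DKO libraries (adjusted p by edgeR = 0.253).

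The identity genes of the hepatoblast are its transcription factors and surface and keratin genes. Of 21 tested, 14 had a log2 fold change below 0 (median -0.18), and 2 passed an adjusted p under 0.05 as lower, where 10.8% of all genes did. Without DKO replicate 3, 11 of the 21 were below 0 (median -0.02). In that fit 2 passed as lower and 2 as higher, where 11.1% and 10.4% of all genes did. The 2 higher ones were Onecut2 at 0.79 (adjusted p by edgeR = 0.0179) and Tbx3 at 0.99 (edgeR, adjusted p = 0.0222). The 2 that were lower in either fit were Hhex and Cdh1. With all libraries Hhex, a homeobox gene of early liver and of blood progenitors, stood at -0.98 (SE 0.15, adjusted p by edgeR = 0.00416). Cdh1, which encodes E-cadherin, stood at -1.52 (SE 0.25, adjusted p by edgeR = 0.00497). Onecut2 and Tbx3 did not pass with all libraries, at 0.45 (adjusted p by edgeR = 0.548) and 0.78 (edgeR, adjusted p = 0.0965), and their groups overlapped. Without DKO replicate 1 they were 0.33 and 0.49 and did not pass either (adjusted p by edgeR = 0.727 and 0.205). Hnf4a, the main hepatocyte regulator, had 1809 ± 323 and 1643 ± 765 normalized counts (adjusted p by edgeR = 0.7995), Dlk1, a surface marker of hepatoblasts, 27957 ± 3613 and 29254.5 ± 10581 (edgeR, adjusted p = 0.885), and Foxa2 305 ± 11.2 and 311 ± 83.7 (edgeR, adjusted p = 0.949). Zhx2 and Zbtb20, which repress Afp after birth, did not pass (2 genes, both with log2 fold changes above 0). Without DKO replicate 1 these were 0.02 and -0.17, and Zbtb20 had its highest normalized count, 1037, in that library.

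Against Afp within a library, 16 of 20 identity genes overlapped between the groups, 1 was lower in DKO, and Foxa1, Tbx3 and Dlk1 were higher. Over 15775 genes, 1.19% were lower in this way and 12.7% higher, shares that depend on the choice of Afp. Identity genes together summed to 1069 to 1433 CPM in WT libraries and 635 to 1485 in DKO libraries. DKO replicate 3 was the lowest in their median too, at -1.08 against the WT mean.

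The labelled cell type was checked against 12 erythroid genes, all of which were tested, with Klf1 at 12312 ± 1724 and 12795 ± 3376 normalized counts (SD, n = 4 each; adjusted p by edgeR = 0.857). Their sum was 1149 to 1316 CPM in WT libraries and 967 to 1475 in DKO libraries, and 2 of 12 passed as higher, among them Epor, where 10.7% of all genes were. The 8 megakaryocyte genes summed to 1369 to 1599 CPM in WT and 986 to 2875 in DKO. For the 10 stem and progenitor genes the sums were 1074 to 1306 and 507 to 743 CPM. Such sums do not single out the labelled cell type. Markers of other cells were counted in the same way. Of 12 genes of mesenchyme and stellate cells, 11 were tested and 9 passed as higher. Their median log2 fold change was 2.87, with a summed level of 109 to 188 CPM in WT and 370 to 1110 in DKO. The stellate cell gene Lrat was not tested and had a mean of at most 11.04 normalized counts. Pdgfrb at 0.21 (adjusted p by edgeR = 0.668) and Reln at -0.06 (edgeR, adjusted p = 0.913) were tested and did not pass. Of 10 stem and progenitor genes 6 passed as lower, and of 10 endothelial genes 3, where 10.8% of all genes did. The 3 endothelial genes were Pecam1, Tie1 and Eng, whereas Cdh5, Kdr, Stab2, Lyve1, Tek, Emcn and Oit3 did not pass. Of 8 macrophage genes tested 2 passed as lower, and of 8 megakaryocyte genes 1, beside the same 10.8%. The macrophage genes that passed were Adgre1, which lost its call in 6 of the 8 fits with 1 library left out, and Lyz2, which kept it. In the macrophage list 2 genes had a log2 fold change above 0. Of 5 biliary genes 3 passed as higher, where 10.7% of all genes did. The other 2 biliary genes, Spp1 and Sox4, had log2 fold changes of -2.52 and -0.21 and did not pass. The biliary gene Sox9 lost its call in 6 of the 8 fits with 1 library left out. Mitochondrial mRNAs took 1.12% to 1.16% of counts in WT and 1.62% to 1.90% in DKO, and Hist1 and Hist2 histone genes 0.0452% to 0.0499% and 0.0969% to 0.112%. The part of these differences in the values of the 10 genes was not tested.

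**Figure D5:**
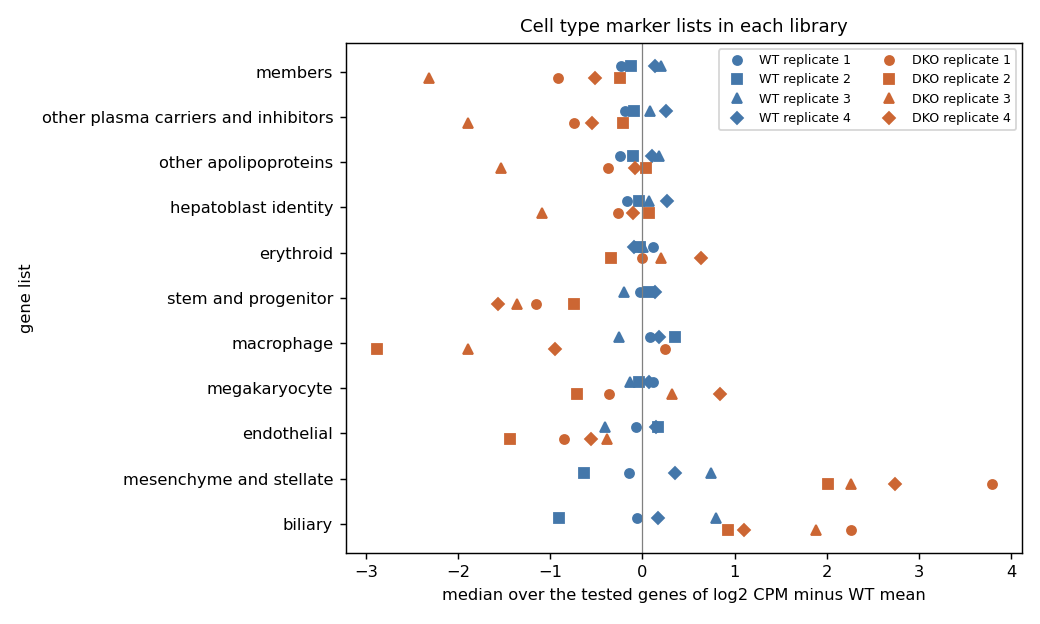
Median over each gene list of log2 CPM minus the WT mean, 1 point per library (4 WT in blue, 4 DKO in orange). DKO replicate 3 (orange triangle) is lowest in the 10 genes and the 3 other hepatoblast lists, not in the erythroid list, and mesenchyme genes are higher in every DKO library.

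The genes outside the 10 whose log2 CPM over the 8 libraries was most like the mean of the 10 were, in order, Serpina1b, Fga, Itih3, Aass, Cpn1, Fgg, Iyd, Qprt, Serpina1a and Aldh1b1. Their Pearson correlations with it were 0.989 to 0.998 among 12329 genes ranked, and the Spearman correlations 0.881 to 0.976. Fga and Fgg encode chains of fibrinogen, Serpina1a and Serpina1b alpha-1-antitrypsin, Itih3 a hyaluronan-binding heavy chain and Cpn1 a plasma carboxypeptidase. Aass, Qprt, Aldh1b1 and Iyd encode enzymes. The wide gap between DKO replicate 3 and the other libraries bears on each of these values.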

How the data were processed

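RNAseq libraries of 4 WT and 4 DKO S0 samples were made from poly(A) RNA by template switching from low input. The authors trimmed reads with fastp 0.21.0, mapped them to mm10 (the same build as GRCm38) with HISAT2 2.2.1 and made the deposited whole-number counts per gene with StringTie 1.3.3b and its prepDE script; these counts were not normalized or pooled. The strand setting is not given in the sources used here. Symbols were matched for 52403 of 52636 identifiers through GENCODE.

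The analysis was run in R 4.3.3 using edgeR 4.0.16 (filterByExpr, TMM scaling, robust quasi-likelihood test without covariates, Benjamini-Hochberg adjustment over 17378 genes). A gene was called at an adjusted p under 0.05 with a log2 fold change beyond 1. Normalized counts are counts scaled to the mean effective library size. Single genes and the Afp to Alb ratio were also tested by exact permutation over 70 arrangements. Levels per kb used the merged exon length of GENCODE. No library was a copy of another (chi-square per gene of 18.3 or more), and at these depths the spread between embryos, not counting error, limits precision for abundant genes. The steps were tested on simulated counts.

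The 10 genes and the gene lists were chosen with earlier results of these data known. Named were the 10 genes, Vps13a and Vps13c, of each list the genes at an adjusted p under 0.05 and otherwise abundant ones, and the 10 genes with the most similar pattern among those with a mean of at least 100 normalized counts. Genes named outside this rule, such as Afm, Hp, Hpx, Mttp and Foxa2, were chosen after their values were seen. Alternatives were DESeq2 1.42.0, 2 other scalings, 2 other filters, no fold threshold, a replicate block, each library left out and a scaling on hepatoblast identity genes, added after the data were seen. A few listed genes that passed are counted but not reported here by name.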

Additional observations from a re-analysis of the deposited data

Results flagged for a closer look

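In the ratio of Afp to Apob, WT replicate 2 stood apart from the other WT libraries, with 39.2 against 46.6 to 47.0. It was the only value of 38 groups of 4 libraries checked that met the Dixon criterion, and chance flags about 1 group in 20.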

How the results depend on the processing

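Among the 10 genes the number called stayed at 1 with library size without TMM, upper-quartile scaling, both other filters, no fold threshold and the replicate block, was 3 with DESeq2, and ranged from 1 to 5 when single libraries were left out, with 5 without DKO replicate 2. For the other carriers and apolipoproteins together it was 5, fell to 3 when libraries were scaled on the hepatoblast identity genes, and ranged from 2 (without WT replicate 4) to 7 (without DKO replicate 2), with 3 without WT replicate 2. For the identity genes it was 1, became 2 with no fold threshold, without the low-count filter, with at least 10 counts in every library and with DESeq2, and ranged from 1 to 2 when libraries were left out, with 2 without WT replicate 1, WT replicate 3 or DKO replicate 2.

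The log2 fold change of Rbp4 turned to -0.012 with no low-count filter and -0.094 under the replicate block, and ranged from -0.17 to 0.27 with libraries left out. That of Apoa2 ranged from -0.45 to 0.015 (without DKO replicate 3). The cause was not tested. The other 8 genes kept their sign under every alternative run. Upper-quartile scaling moved the median of all genes from 0.03 to 0.14 and the genes at an adjusted p under 0.05 from 1878 lower and 1867 higher to 1242 and 2492, and scaling on identity genes moved that median to 0.44. DESeq2 called 508 genes lower and 1353 higher, against 423 and 1076 in edgeR, and the replicate block 343 and 613.

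Replicate numbers did not pair the libraries: deviations of same-numbered libraries correlated at -0.09, 0.04, -0.02 and -0.01, and not every library correlated best with its own number. With the block, the count was 1 among the 10 genes, 4 among other carriers and apolipoproteins and 1 among the identity genes, and the log2 difference of the Afp to Alb ratio was 0.73. With libraries left out, that difference ranged from 0.69 to 0.79.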
